A study of Mus musculus with 38 samples.

Results

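Assays A03 and A08 were 2 of the 21 target assays measured by qRT-PCR in the left ventricle of mice after ischemia and reperfusion. They were selected on their relative expression in LAD and sham mice 24 h after surgery, where every LAD mouse lay below every sham mouse, and their course was then followed to 96 h. The assays are listed under plate codes that no table used here pairs with a gene, so they are called by their codes and no gene is assigned to them. The panel's primer table covers myosin heavy chains, transcription factors of energy metabolism (PGC-1α, the PPAR family and TFEB), carriers of fatty acids and enzymes that burn them, and perilipins, which coat lipid droplets. For the same reason no marker could be read, and the labelled tissue could not be checked against its markers.

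The healthy heart draws most of its energy from fatty acids, which are taken up from the blood, carried into mitochondria and oxidized. Blocking the left anterior descending (LAD) coronary artery deprives the muscle downstream of oxygen, and restoring flow adds further damage around the infarct. Myriocin inhibits serine palmitoyltransferase, the enzyme that starts sphingolipid synthesis, and so limits the making of ceramide, a lipid tied to inflammation and cell death.

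The study used 38 male C57BL/6N mice aged 8 to 10 weeks, all anesthetized and opened at the chest. Sham mice had the operation without ligation (5 at 24 h and 5 at 96 h). LAD mice had the artery tied for 30 min and received empty solid lipid nanocarriers at reperfusion (7 at 24 h and 7 at 96 h). MLAD mice had the same occlusion and were injected with 20 μL of Myriocin-loaded nanocarriers into the left ventricle (7 at 24 h and 7 at 96 h). RNA of LAD and MLAD mice came from the area at risk, the tissue fed by the tied artery, and RNA of sham mice from the left ventricle, so the sampled region goes with the surgery. No sham mouse is stated to have received nanocarriers, so occlusion and carrier cannot be told apart in comparisons with sham. In bulk tissue, fewer cells of a type and less RNA per cell cannot be told apart either.

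For each mouse the files list a threshold cycle (Ct), the PCR cycle where fluorescence passes a set level, and an earlier Ct means more template. Relative expression is the Ct of reference assay B10 in the row directly below the target minus the target Ct, in cycles, equal to log2 units at perfect amplification. Values below 0 mean that the target crossed the level later than B10. The study's methods name a single endogenous control, RPLI, and B10 is read here as that assay. Its primers are shown because every value of A03 and A08 is read against this amplicon, while the primers of A03 and A08 themselves could not be told from the list.
RPLI forward: ctcggccgttctcctgta
RPLI reverse: gtggaagtggggcttcag
A03 had a target and a B10 Ct in 31 of 38 mice, and A08 in 30 of 38. The number of wells behind a Ct is not given, so the precision of a single reading is unknown.

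The reference was not level across the panel. Averaged over its rows, B10 Ct was 26.4 ± 0.312 (SD, n = 5) in sham, 25.3 ± 0.203 (SD, n = 7) in LAD and 26.1 ± 0.141 (SD, n = 7) in MLAD mice at 24 h, and group means lay between 25.0 and 25.8 at 96 h. B10 readings also recurred to the last decimal in other assays, in 14 of 31 readings of A03 and 18 of 30 of A08, and under another sample number in 13 and 18 of them. All recurrences of A03 stayed within the same group, as did those of A08 with 1 exception, a sham reading at 96 h that is also listed for a sham mouse at 24 h. A mouse numbered 1 under A03 is therefore not taken here as mouse 1 under A08, and the 2 assays are not compared mouse by mouse.

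At 24 h, the values that chose the assays were as follows, given as a description without a test. A03 relative expression was -4.82, -4.43, -4.49 and -4.69 in the 4 sham mice, and -5.79, -5.89, -6.07, -5.61 and -6.01 in the 5 LAD mice. The LAD mice differed by -1.27 cycles on average, a relative quantity of 0.418 ± 0.0532 (SD, n = 5) against sham. A08 relative expression was -1.32, -1.25 and -1.28 in the 3 sham mice, which lay very close together. In the 7 LAD mice it ran from -3.02 to -2.01 with a median of -2.32. Here the LAD mice differed by -1.13 cycles on average, a relative quantity of 0.469 ± 0.111 (SD, n = 7). In both assays the groups stood apart, as the choice required.

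The same separation was found in 5 of the 21 assays, which is 23.8%. Besides A03 and A08 these were B08, A02 and B05, named here after their values were seen. The gap between the lowest sham and the highest LAD value was 0.80 cycles for A03 and 0.70 for A08. Just inside the limit stood B05 with a gap of 0.28 cycles, and just outside it B02 with an overlap, at -0.09 cycles. The choice was thus made on the ranges and did not take in all assays that met it.

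**Figure D1:**
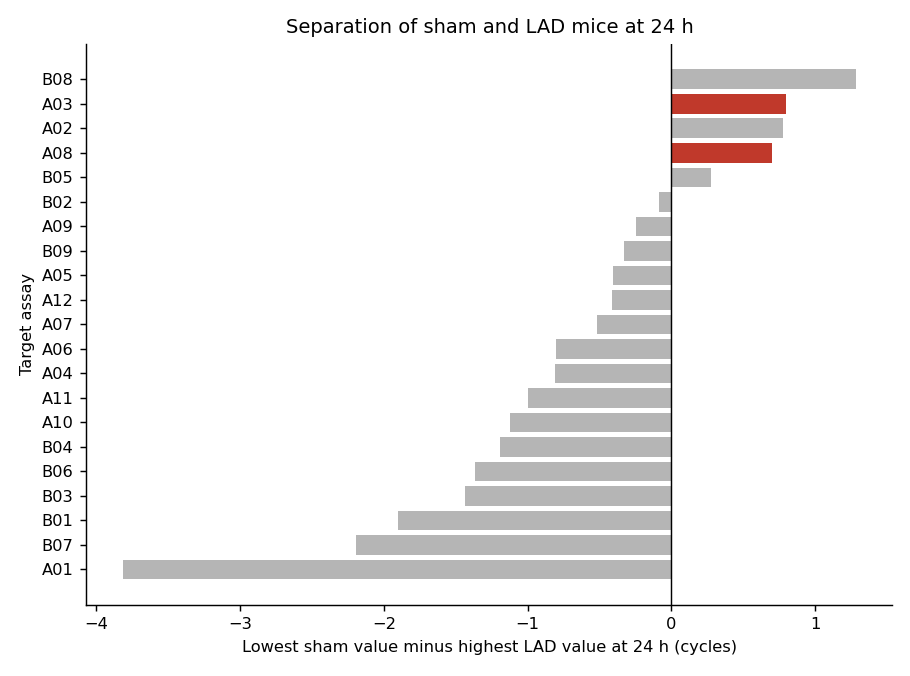
Lowest sham value minus highest LAD value of relative expression at 24 h (cycles, x axis) for each of the 21 target assays (y axis), with A03 and A08 in red. Bars to the right of 0 mark the 5 assays in which every LAD mouse lay below every sham mouse, A03 at 0.80 and A08 at 0.70.

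The Ct values behind this fall differed between A03 and A08. The A03 target Ct itself was 31.5, 31.2, 31.0 and 31.0 in sham mice and 30.9, 31.1, 30.6, 31.6 and 31.5 in LAD mice at 24 h. These ranges overlapped, and without the reference the LAD mean lay 0.07 cycles on the higher-expression side of sham. The B10 Ct listed with A03 was 26.7, 26.7, 26.5 and 26.3 in sham mice and 25.1, 25.2, 24.5, 26.0 and 25.5 in LAD mice. Every LAD reading of B10 was below every sham reading, with a mean difference of -1.34 cycles. In A03 the B10 readings at 24 h thus stood apart, while the target readings overlapped. On target Ct alone, the median of the target assays for LAD minus sham was 0.793 cycles, so A03 at 0.07 lay below it. Against the mean of all target assays, A03 in LAD minus sham was -0.96 cycles. A target Ct alone cannot separate the amount of RNA measured from the level of the transcript in it. What moved B10 was not tested.

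For A08 the target reading itself moved. Target Ct was 24.2, 24.9 and 25.0 in sham mice, and from 25.6 to 28.6 with a median of 27.3 in LAD mice. No LAD mouse reached the sham range, and the LAD mean differed from sham by -2.45 cycles, turned so that negative is lower expression. A08 was the only assay of the 21 in which every LAD mouse also lay below every sham mouse on target Ct alone. The B10 Ct listed with A08 moved opposite to that of A03. It was 22.9, 23.7 and 23.7 in sham mice and from 22.6 to 26.0 with a median of 25.1 in LAD mice, 1.32 cycles later on average. Those 3 sham readings were also early beside the panel mean of 26.4 for B10 in sham mice, and what set them apart was not tested.

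**Figure D2:**
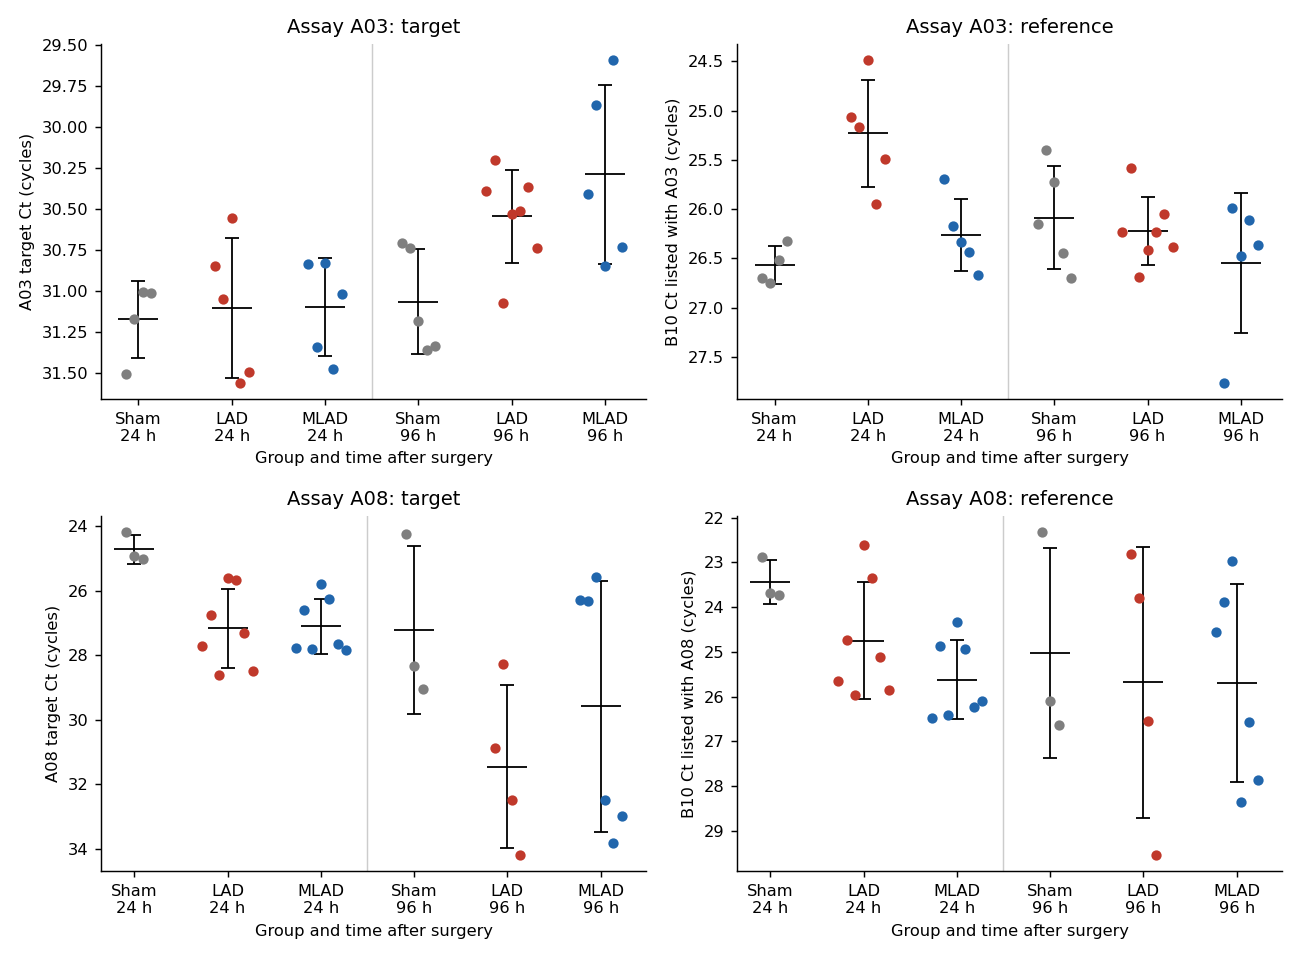
Target Ct (left) and the B10 Ct listed with it (right) for A03 (top) and A08 (bottom), in cycles on an inverted axis so that more template is higher, by group and time; points are mice, lines are the mean and SD. At 24 h the target of A03 averages 31.1 to 31.2 in all groups while its B10 reading is early in LAD mice, whereas the target of A08 is later in LAD and MLAD mice than in sham mice.

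MLAD mice at 24 h stood between the other groups or near sham, again as a description, since the LAD and sham values of that time chose the assays. A03 relative expression was -5.14, -5.18, -4.50, -5.05 and -4.35, so that all 5 MLAD mice lay above all 5 LAD mice. The mean difference was 1.03 cycles from LAD and -0.24 from sham, where the ranges overlapped. A08 relative expression in the 7 MLAD mice ran from -1.75 to -1.30 with a median of -1.42. All 7 lay above all 7 LAD mice, by 0.93 cycles on average. Their mean differed from sham by -0.20 cycles, and 5 of the 7 lay below every sham mouse. The median of the 21 assays was 0.19 for MLAD minus LAD and -0.19 for MLAD minus sham. How many assays had such a gap between MLAD and LAD mice was not counted, and the choice itself favoured low LAD values.

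The difference between MLAD and LAD mice at 24 h was not seen in the target readings of either assay. A03 target Ct averaged 31.1 ± 0.298 (SD, n = 5) in MLAD mice and 31.1 ± 0.429 (SD, n = 5) in LAD mice. A08 target Ct averaged 27.1 ± 0.861 (SD, n = 7) in MLAD mice and 27.2 ± 1.22 (SD, n = 7) in LAD mice. On target Ct alone the MLAD mean lay 0.0031 cycles from LAD for A03 and 0.06 cycles from LAD for A08, less than the SD of either group. The B10 readings differed instead, by 1.03 cycles for A03 and 0.87 cycles for A08, later in MLAD mice. With the mean of all B10 rows as reference MLAD minus LAD was 0.91 in A03 and 0.87 in A08, and with the mean of the target assays 0.78 and 0.68. For the target assays, the median MLAD minus LAD on target Ct alone was -0.71 cycles, so A03 and A08 lay above it. Compared with sham, the A08 target reading of MLAD mice was nearly as late as that of LAD mice, a difference of -2.39 cycles.

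At 96 h the course of the assays parted. A03 was higher in LAD than in sham mice, whereas A08 lay below sham, and further below than at 24 h only when read against its own B10 row or on target Ct alone. The comparisons within 96 h use no sample of the groups that chose the assays. Their exact p-values set the difference against those from all regroupings of the mice listed.

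A03 relative expression at 96 h was -4.56, -5.33, -5.46, -4.91 and -4.64 in the 5 sham mice. In the 7 LAD mice it ran from -4.62 to -4.12 with a median of -4.32. Of the LAD mice, 6 lay above every sham mouse and the remaining mouse lay within the sham range. LAD mice averaged 1.59 ± 0.178 (SD, n = 7) in relative quantity. The mean difference was 0.66 cycles (SE 0.19, two-sided exact permutation test, p = 0.00505). The exact test adjusted over the 21 assays (Benjamini-Hochberg) gave 0.05, which is not under the threshold of 0.05, and limma gave an adjusted p of 0.0170. In this comparison 57.1% of the assays had an unadjusted exact p under 0.05, most of them lower in LAD mice, and 14.3% were higher, as A03 was. The median of the 21 assays was -1.17 cycles, so A03 stood on the other side of 0 from most of the panel.

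The higher A03 level in LAD mice at 96 h was also seen in the target reading. Target Ct was 30.7, 30.7, 31.2, 31.4 and 31.3 in sham mice and from 30.2 to 31.1 with a median of 30.5 in LAD mice, with overlapping ranges. The LAD mean on target Ct alone lay 0.52 cycles higher in expression (exact permutation test, p = 0.0227). B10 Ct was 26.1 ± 0.525 (SD, n = 5) in sham and 26.2 ± 0.345 (SD, n = 7) in LAD mice and differed by 0.14 cycles.

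With Myriocin, A03 relative expression at 96 h was -2.65, -3.88, -4.37, -3.48 and -4.37 in the 5 mice with a value. All 5 lay above all 5 sham mice, a relative quantity of 2.62 ± 1.46 (SD, n = 5). The mean lay 1.23 cycles above sham (SE 0.37, exact permutation test, p = 0.00794, which is the lowest that 5 against 5 can give). Its adjusted p over the 21 assays was 0.075 by the exact test and 0.000682 by limma, and 47.6% of the assays differed from sham at an unadjusted exact p under 0.05, of all assays 33.3% higher. Compared with LAD mice, 3 of the 5 MLAD mice lay above all 7 LAD mice and 2 lay among them. This difference of 0.57 cycles (SE 0.33) did not pass the exact permutation test (p = 0.0707, adjusted p = 0.0873), while limma, which pools the spread of all groups, gave an adjusted p of 0.0326. By the exact test 76.2% of the assays differed between MLAD and LAD mice at 96 h, before as after adjustment, 71.4% higher and 4.76% lower in MLAD, with a median difference of 1.54 cycles, so A03 was among the smaller differences of the panel. The highest of the 5 values belongs to replicate 1, whose B10 Ct of 27.8 was the latest of the group, where the others lay between 26.0 and 26.5. Without this mouse the difference from LAD was 0.30 cycles.

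A08 relative expression at 96 h was -1.91, -2.24 and -2.41 in the 3 sham mice. In the 4 LAD mice it was -8.07, -4.46, -5.93 and -4.66. All 4 LAD mice lay below all 3 sham mice, with a mean difference of -3.59 cycles (SE 0.84) and a relative quantity of 0.120 ± 0.0892 (SD, n = 4). The exact permutation test gave p = 0.0571, the smallest that 4 mice against 3 allow, so this design cannot reach 0.05. Limma, which borrows spread from the other groups and assays, gave an adjusted p of 0.000156. Of the 21 assays, 42.9% were lower in LAD than in sham mice at an unadjusted exact p under 0.05. A08 could not be among them, nor could A02, A07, B01, B06 and B07, which also had 4 mice against 3. Of these, A02, B06 and B07 were lower in LAD mice at the same smallest value (exact permutation test, p = 0.0571). A07 and B01 did not reach it. How many assays had separate ranges in this comparison was not counted.

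The target readings of A08 at 96 h were spread far more widely than at 24 h. Target Ct was 24.2, 28.3 and 29.0 in sham mice and 30.9, 28.3, 32.5 and 34.2 in LAD mice, and B10 Ct was 22.3, 26.1 and 26.6 in sham mice and 22.8, 23.8, 26.6 and 29.5 in LAD mice. Both readings spanned several cycles within a group. The LAD difference on target Ct alone was -4.25 cycles (exact permutation test, p = 0.171).

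A08 in MLAD mice at 96 h fell into separate sets by target Ct, less clearly by relative expression. Relative expression was -1.73, -2.45 and -2.63 in replicates 1 to 3 and -4.15, -7.27 and -5.11 in replicates 4 to 6. Target Ct was 26.3, 26.3 and 25.6 in the former and 32.5, 33.8 and 33.0 in the latter. The mean over all 6 lay 1.89 cycles above LAD (SE 1.18) and did not pass the exact permutation test (p = 0.152, adjusted p = 0.16). Limma gave an adjusted p of 0.0101 with an SE of 0.66, since it pools the spread of all groups. The SD of A08 ran from 0.034 to 0.363 in the 24 h groups and was 1.66 in LAD and 2.06 in MLAD mice at 96 h. Its difference from sham was -1.70 cycles (SE 0.85, exact permutation test, p = 0.167, adjusted p = 0.219), and 5 of the 6 mice lay below every sham mouse. By the exact test 14.3% of the assays were lower than sham in MLAD mice. Without replicate 1, the only MLAD mouse above all sham mice, the difference from sham was -2.13 cycles (exact permutation test, p = 0.0357). Leaving out that mouse made the groups stand apart, which by itself gives the lowest p that 5 against 3 allow. Of the 9 fits without 1 mouse it was the 1 with p under 0.05, and p in these fits reached 0.357.

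In MLAD mice these sets go along with the B10 readings that recur in other assays. LAD mice showed no such division in relative expression, as that of replicate 4 (-4.66) lay within the range of replicates 1 to 3. By target Ct, LAD replicate 4 at 34.2 was later than LAD replicates 1 to 3, at 30.9, 28.3 and 32.5. Among sham mice target Ct was 24.2 in replicate 2, and 28.3 and 29.0 in replicates 3 and 4. The B10 readings of MLAD replicates 1 to 3 are also listed with B05 and B06, as are those of LAD replicates 1 to 3 (with B05, and for replicate 2 also with B06) and of sham replicate 2. The readings of MLAD replicates 5 and 6, LAD replicate 4 and sham replicates 3 and 4 are also listed with A06 or A07, and that of MLAD replicate 4 with no other assay. Among mice whose reading recurs in B05 or B06, A08 relative expression was -2.27 ± 0.475 (SD, n = 3) in MLAD and -6.16 ± 1.81 (SD, n = 3) in LAD mice. All 3 MLAD mice lay above all 3 LAD mice, by 3.89 cycles, in a split made after the values were seen. Among mice whose reading recurs in A06 or A07, both MLAD mice lay below the single LAD mouse, and the difference was -1.53 cycles. The sign of the difference between MLAD and LAD mice in A08 at 96 h was thus opposite in the sets. The numbers were too small for a test, and in the latter set the sign rests on a single LAD mouse. The fall from sham to LAD was seen in both, at -4.24 cycles in the former and -2.33 in the latter, with a single mouse in an arm of each.

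**Figure D3:**
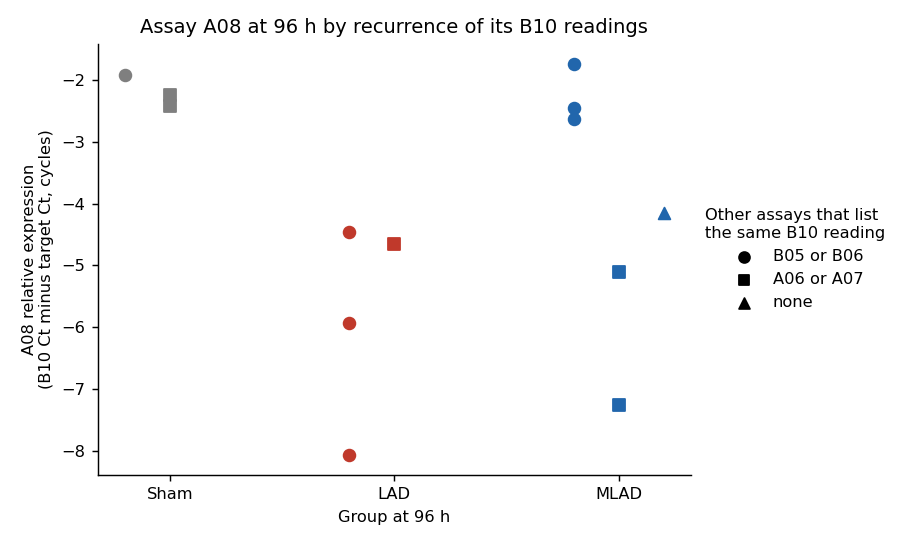
A08 relative expression at 96 h (B10 Ct minus target Ct, cycles, y axis) by group (x axis), each point a mouse; the shape gives the other assays that list the same B10 reading. MLAD mice sharing readings with B05 or B06 (circles) lie between -2.63 and -1.73, near sham, and those sharing with A06 or A07 (squares) at -5.11 and -7.27.

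Between 24 and 96 h the assays moved in opposite directions in occluded mice. In MLAD mice, whose values did not enter the choice, A03 was 1.09 cycles higher at 96 h than at 24 h (SE 0.37, exact permutation test, p = 0.0238, adjusted p = 0.0833). All 5 mice at 96 h lay above the 24 h mean, and limma gave an adjusted p of 0.00203. A08 in MLAD mice was lower at 96 h, by -2.41 cycles (SE 0.84, exact permutation test, p = 0.00233, adjusted p = 0.0398). Of the 6 mice at 96 h, 5 lay below all 7 mice of 24 h. In this comparison 38.1% of the assays had an unadjusted exact p under 0.05, 19.0% higher and 19.0% lower, and 19.0% had an adjusted p under 0.05. On target Ct alone, the rise of A03 was 0.81 cycles (exact permutation test, p = 0.0238) and the difference of A08 was -2.48 cycles (exact permutation test, p = 0.134).

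LAD mice showed the same directions, as a description. The mean of A03 was 1.55 cycles higher at 96 h than at 24 h and the ranges did not overlap. The mean of A08 differed by -3.37 cycles, again without overlap. The median of the 21 assays was -1.08 cycles, and how many of them were without overlap was not counted. Sham mice did not stay level between the times either, at -0.38 cycles for A03 and -0.90 for A08, so the times differed in mice without occlusion too. Without a reference A08 over time was -2.49 cycles in sham mice, beside -2.48 in MLAD mice. With the mean of all B10 rows it was -3.87 in sham and -2.95 in MLAD mice. The mean of the target assays gave -3.10 and -2.78. In LAD mice the values were -4.29, -3.87 and -2.87 in the same order. With those references the fall of A08 was thus no smaller in sham than in MLAD mice. With its own B10 row it was smaller in sham mice, at -0.90 beside -2.41 cycles in MLAD mice. The B10 Ct listed with A08 was 1.59 cycles later at 96 h in sham mice and 0.07 cycles later in MLAD mice. In sham mice at 24 h it averaged 23.4, beside 26.4 over the panel, and the reason was not tested. The difference of LAD from sham went from -1.27 to 0.66 cycles for A03 and from -1.13 to -3.59 cycles for A08. The larger A08 difference at 96 h depended on the reference. Between the times it changed by -2.46 cycles with its own B10 row and by -1.80 on target Ct alone. With the mean of all B10 rows it was -3.59 cycles at both times, and with the mean of the target assays it went from -3.37 to -3.13. The median of the 21 assays went from -0.32 to -1.17 cycles with each assay's own B10 row. The change in this difference between the times was not tested, since the 24 h values chose the assays.

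**Figure D4:**
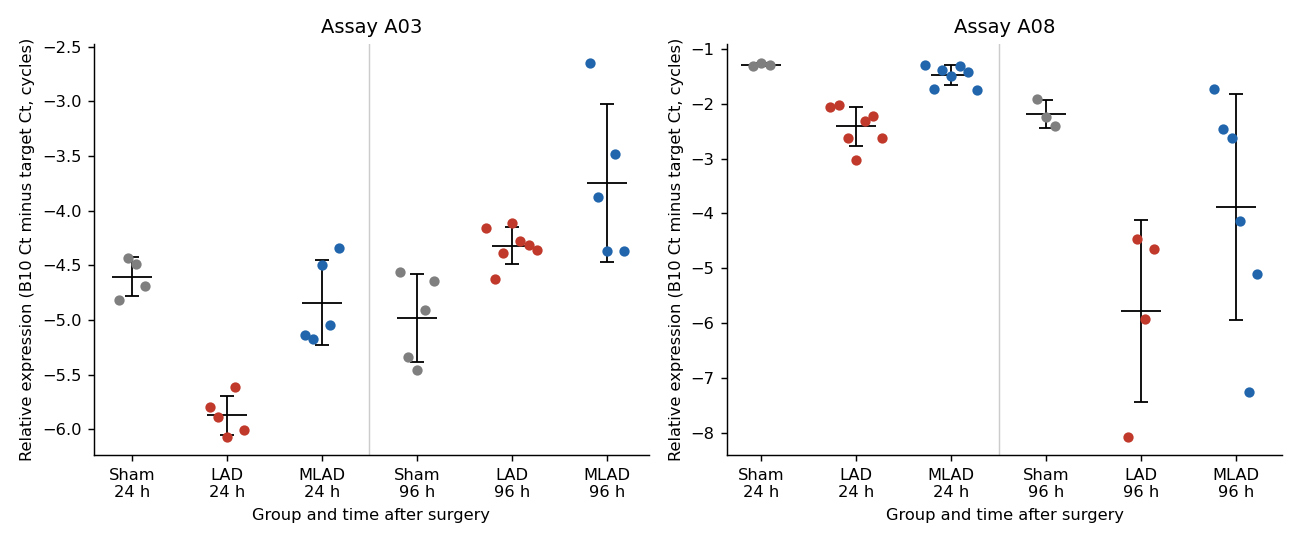
Relative expression (B10 Ct minus target Ct, cycles, y axis) of A03 (left) and A08 (right) by group and time (x axis); points are mice, lines the mean and SD. LAD mice lie below sham at 24 h in both assays, and at 96 h the LAD mean differs from sham by 0.66 cycles in A03 and by -3.59 cycles in A08.

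How far each difference depended on the reference is shown by setting the target Ct against other references. For A03, LAD minus sham at 24 h was -1.27 cycles with its own B10 row, -1.23 with the mean of all B10 rows of the sample number, -0.96 with the mean of all target assays and 0.07 with none. At 96 h the same comparison was above 0 with these 4 references, from 0.52 with none to 2.31 with the mean of the target assays. For A08, LAD minus sham at 24 h was below 0 with these 4, from -3.59 with the mean of all B10 rows to -1.13 with its own row. At 96 h it ran from -4.25 with none to -3.13 with the mean of the target assays. The A03 difference between MLAD and LAD at 96 h changed sign with the mean of the target assays, to -0.68 (exact permutation test, p = 0.119). The means over a sample number treat equal numbers as 1 animal across assays, and the recurring B10 readings go against that.

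**Figure D5:**
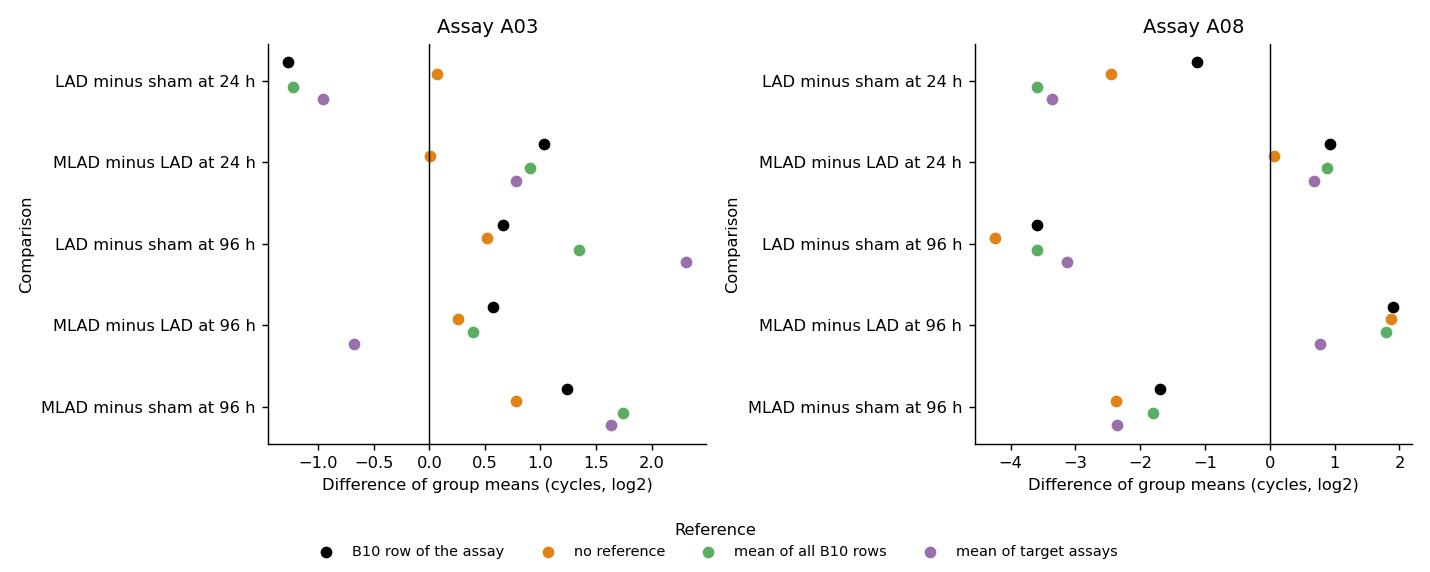
Difference of group means (cycles, log2, x axis) for A03 (left) and A08 (right) in 5 comparisons (y axis), with the target Ct set against its own B10 row, no reference, the mean of all B10 rows of the sample number, or the mean of all target assays. A03 in LAD minus sham at 24 h lies at -1.27 with its own B10 row and at 0.07 with no reference, while the same comparison of A08 lies below 0 with these 4.

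The assays nearest to each were sought by the root mean square distance over the 4 differences from sham (LAD and MLAD at 24 and 96 h). Nearest to A03 were A04 at 0.61 cycles, B02 at 0.66 and B01 at 0.66. All 3 were below sham in LAD mice at 24 h by less than A03, at -0.13, -0.46 and -0.18 cycles, and all 3 were above sham in MLAD mice at 96 h, at 1.31, 0.71 and 1.11 cycles. Nearest to A08 were A12 at 0.54 cycles, B09 at 0.76 and B08 at 0.89. Their LAD means at 96 h were -4.10, -2.57 and -4.30 cycles from sham, beside -3.59 for A08. The distance between A03 and A08 themselves was larger, at 2.58 cycles, with most of it from the 96 h differences.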

How the data were processed

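Ct values of 21 target assays and reference B10 were measured in 38 mice by SYBR green qRT-PCR. The authors deposited raw Ct values, another unit than counts, with threshold and well number not given in the sources used here. A separate deposited table of the authors' ratios of LAD and MLAD to sham was not used. Groups followed the sample titles. Relative expression was B10 Ct (row directly below) minus target Ct, and relative quantity was 2 to the power of its difference from the sham mean. Comparisons used a two-sided exact permutation test with Benjamini-Hochberg adjustment over 21 assays, called at 0.05 before adjustment, in place of the methods' unpaired test, in Python 3.11.15 (SciPy 1.17.1, NumPy 2.4.6, pandas 2.3.3, figures by matplotlib 3.10.9). Limma 3.58.1 (R 4.3.3) over all 6 groups was an alternative. Tests were tested on simulated data with equal spread in all groups, which the A08 groups did not have. Other assays were named as the 3 nearest to each member and those beside the limit of the choice. Alternatives changed the reference, scale, mean, Ct limit of 35, adjustment and mice. A08 mice sharing B10 readings were compared separately, chosen after seeing the data. Members and lists were chosen with earlier results of these data known.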

Additional observations from a re-analysis of the deposited data

Results flagged for a closer look

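In A03, the B10 Ct of MLAD replicate 1 at 96 h (27.8) stood apart from the other 4 mice, with a gap to the nearest of 0.724 of the whole range. Of 30 groups of 4 to 7 values looked at this was the 1 that stood out, where chance gives 1.5. Without this mouse the A03 difference from LAD at 96 h was 0.30 cycles, against 0.57 with it.

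The difference of LAD from sham in A03 was 1.93 cycles higher at 96 h than at 24 h, every LAD mouse lying below the sham mean at 24 h and above it at 96 h. The difference between the times was not tested, since the 24 h values chose the assay. It was 0.45 cycles on target Ct alone.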

How the results depend on the processing

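Leaving out Ct above 35, a linear scale and medians kept the calls of A03 and A08, except A08 in MLAD mice at 96 against 24 h on a linear scale (-0.317 in relative quantity, exact permutation p = 0.118). The same comparison was -2.48 on target Ct alone (p = 0.134), -2.95 with mean B10 (p = 0.135) and -2.78 with the mean target Ct (p = 0.135), and that of A03 was 0.62 (p = 0.111) and 0.68 (p = 0.119) with the latter references, all by the exact permutation test. The A03 difference between MLAD and LAD mice at 96 h turned to -0.68 with the mean target Ct. That of A08 turned to -1.53 in the mice sharing readings with A06 or A07, where LAD had a single mouse. The cause was not tested. Over 21 assays the adjusted exact p was 0.05 for A03 in LAD (0.66) and 0.075 in MLAD (1.23) against sham at 96 h, and 0.0833 for A03 in MLAD over time (1.09), or 0.0625 over all 84 tests.

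Limma gave smaller p than the exact test in several comparisons at 96 h. It pools the spread of all groups, and that of A08 was far wider in LAD and MLAD mice at 96 h than at 24 h. For A08 LAD minus sham (-3.59) it gave 7.41e-05 unadjusted and 0.000156 adjusted. For A08 MLAD minus sham (-1.70) it gave 0.0262 unadjusted and 0.0787 adjusted. For MLAD minus LAD it gave 0.028 and 0.0326 in A03 (0.57) and 0.00773 and 0.0101 in A08 (1.89). For A03 LAD minus sham its unadjusted p was larger, 0.0121 against 0.00505 by the exact permutation test. Same-numbered mice did not deviate together (correlations from -0.628 to 0.385), so the numbers were not taken as pairs. These correlations run over assays within a number, and since a number may not be 1 mouse in all assays, they do not show that mice were unpaired. Under a replicate block limma gave -3.53 for A08 LAD minus sham at 96 h (adjusted p = 0.000446), 0.61 for A03 (0.0230) and 2.25 for A08 (0.00310) in MLAD minus LAD, 0.70 for A03 LAD minus sham (0.0188) and -1.29 for A08 MLAD minus sham (0.254; 0.121 unadjusted).

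Described differences moved with the reference. On target Ct alone, with mean B10 and with mean target Ct, A08 at 24 h was -2.45, -3.59 and -3.37 in LAD minus sham and -2.39, -2.72 and -2.68 in MLAD minus sham, A03 in LAD mice over time 0.56, 1.13 and 2.14, and sham over time 0.11, -1.45 and -1.13 in A03 and -2.49, -3.87 and -3.10 in A08. Without a reference A03 was 0.0705 in LAD and 0.0736 in MLAD minus sham at 24 h, and MLAD minus LAD was 0.0031 in A03 and 0.0634 in A08, while mean B10 gave 0.91 and 0.87 and mean target Ct 0.78 and 0.68. With mean target Ct, A03 LAD minus sham at 24 h was -0.96. The median of the 21 assays itself moved by 1.11 on target Ct alone in LAD minus sham at 24 h and by -0.984 at 96 h.

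Leaving out 1 mouse at a time, A03 ran from 0.54 to 0.77 (LAD minus sham at 96 h), 0.30 to 0.73 (MLAD minus LAD; exact permutation p = 0.0364 without MLAD replicate 3 or 7), 0.96 to 1.39 (MLAD minus sham) and 0.82 to 1.25 (MLAD over time). A08 ran from -4.03 to -2.83, 1.13 to 2.57, -2.13 to -1.02 and -2.84 to -1.73. At 24 h LAD minus sham ran from -1.34 to -1.21 in A03 and -1.20 to -1.03 in A08.

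Of the 21 assays, 12 were called in LAD minus sham at 96 h, 5 on target Ct alone, 4 with mean B10, 3 with mean target Ct, 5 with medians, 0 adjusted over 21 and 4 over 84 (limma 16), and 5 to 11 without 1 mouse (5 without sham replicate 2, 7 without replicate 3). In MLAD minus LAD the count of 16 became 7, 6 and 3 with those references, and 13 to 16 without 1 mouse. In MLAD minus sham the count of 10 became 4, 3 and 2, then 2 with medians, 0 and 2 adjusted, 4 by adjusted limma, and 4 to 8 without 1 mouse (4 without sham replicate 1 or 2, 6 without sham replicate 3 or MLAD replicate 4 or 6). In MLAD over time the count of 8 became 4, 1 and 1, 4 and 4 adjusted, 5 by adjusted limma, 4 with the block, and 6 to 8 without 1 mouse. A Ct has no read depth, and the number of mice limits the precision.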
